A study of Mus musculus with 6 samples.

Results

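The 9 genes described here encode a set of proteins of the Nodal signalling pathway in mouse embryonic stem cells. They are the ligands Nodal and Gdf3, the coreceptor Tdgf1, the type II receptor Acvr2b, the extracellular antagonists Lefty1 and Lefty2, the intracellular inhibitors Smad7 and Skil, and the homeobox target Gsc. They were chosen by name as parts of the pathway, with earlier results of these data known, and all 9 were found among the 55450 genes of the files and passed the filter on low counts, Gsc only through its wild-type libraries. The study compared the RNA of Hoxd12-/- cells with that of Wild Type cells, with 3 libraries in each group. Per the labels, both groups were embryonic stem cells of strain C57BL6, given as E3.5 embryo in the developmental stage label, and both grew in mES+2i medium, where 2i stands for inhibitors that keep the cells naive. The labels do not say how the deletion was made, whether it was studied in 1 clone or several, or whether each library had a culture of its own. The spread behind each p-value is thus that of these libraries alone and may be technical.

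Nodal is a secreted ligand of the TGF-beta family. It binds type I and type II activin receptors together with the coreceptor Cripto, the product of Tdgf1, and the activated receptors phosphorylate Smad2 and Smad3, which enter the nucleus and act with partners such as Foxh1. The pathway induces its own antagonists: the Lefty proteins block the ligand and its coreceptor outside the cell, and Smad7 and SnoN, the product of Skil, dampen the signal inside it. In the mouse embryo Nodal signalling patterns the epiblast and drives formation of the primitive streak, and embryonic stem cells in culture express the ligand and the Lefty genes.

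Library totals lay between 5412577 and 6280934 expected counts, and 3 counts, the least taken as detectable, were worth 0.478 to 0.554 CPM (counts scaled to the library size), with counting error as the only error covered. Hoxd12 had 0 counts in all 6 libraries, so the targeted transcript gave no check of the labels. Knockout replicate 2 stood apart: the locus CT010467.1 took 1.63% of its counts and 0.102% to 0.139% of those of the other libraries. The differences below are therefore also given without that library where a call changed. All 10 embryonic stem cell markers were detected in all libraries, with a summed level of 12336 to 12580 TPM (the deposited level per transcript length and library size) in the knockout and 11153 to 11712 TPM in wild type. Most of that sum was Dppa5a (8993 to 10295 TPM), which was not called in counts (log2 fold change 0.03). By edgeR 1 of the 10 markers rose, Zfp42 (0.29), and 2 fell, Nanog (-0.39) and Tdh (-0.42). These calls are 30% of the list, against 26.5% of all tested genes (12.1% higher and 14.4% lower). Of 8 fibroblast markers, Col3a1, Lum, Dcn and Postn were at 0 counts in all libraries, and the list summed to 4.23 to 8.84 TPM in the knockout and 7.92 to 11.3 TPM in wild type. Of its 2 tested markers 1 fell, Thy1 (-0.97, edgeR adjusted p = 0.00859), and Twist1 was not called (0.54, edgeR adjusted p = 0.330). Of 7 primitive endoderm markers Sox7 was at 0, and the list summed to 2.26 to 4.28 TPM in the knockout and 1.16 to 2.25 TPM in wild type, ranges that just failed to overlap. Its 1 tested marker, Gata4, rose (1.10, edgeR adjusted p = 0.0247). Gata4 had 42, 14 and 26 counts in the knockout against 11, 8 and 18 in wild type, groups that overlapped. The untested markers of this list went both ways. Mean CPM was lower in the knockout for Gata6 (0.663 against 0.850) and Sox17 (0.347 against 0.743). It was higher for Dab2 (2.12 against 0.856), Pdgfra (0.665 against 0.572) and Foxa2 (0.105 against 0). The 7 formative epiblast markers summed to 21.7 to 35.2 TPM in the knockout and 26.1 to 29.7 TPM in wild type, and the 6 trophectoderm markers to 49.97 to 56.2 TPM and 51.4 to 56.8 TPM. Among the 6 tested formative markers Otx2 rose (0.87) and Dnmt3b fell (-0.69), or 33.3% called against 26.5% of all tested genes. The part of such cells in the results below was not tested. In these bulk samples, fewer cells of a type and less RNA per cell cannot be told apart.

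The data show higher RNA of the ligand Nodal and of both of its Lefty antagonists in the knockout, and lower RNA of the receptor Acvr2b. The differences of the ligand and the antagonists were below 1.5-fold: 1.18-fold for Nodal, 1.29-fold for Lefty1 and 1.38-fold for Lefty2. Of the 9 genes, 3 rose and 2 fell by edgeR's quasi-likelihood test, at an adjusted p (Benjamini-Hochberg, 12891 genes) below 0.05. One of the falls is that of the target Gsc, which was tested only because of its higher wild-type counts, so its call is a description and supports nothing here. Over all tested genes the share called was 26.5%, with 12.1% higher and 14.4% lower, so a call by itself was common in this comparison. Other fits called fewer genes: DESeq2 12.4% (4.08% higher and 8.27% lower), limma on log2(TPM + 1) 14.4% (8.59% and 5.81%) and edgeR with a transcript length offset 19.1% (8.07% and 11.1%). In 6 of the 9 genes the CPM of the groups did not overlap, which was so for 39.7% of all tested genes (19.6% higher and 20% lower in the knockout). The median log2 fold change of the 9 genes was 0.10, and that of all tested genes 0.02. The calls of Lefty1 and Lefty2 held under each of 15 other settings, whereas Nodal lost its call in 3 of them, Acvr2b in 4 and Gsc in 7.

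Nodal (ENSMUSG00000037171, chromosome 10, 61417972 to 61425338, GRCm38, plus strand) has 1 annotated transcript. Its CPM, scaled by the trimmed mean of M-values (TMM), was 77.8, 87.4 and 77.4 in knockout replicates 1, 2 and 3 and 67.1, 71.7 and 65.7 in the wild-type libraries. Every knockout library lay above every wild-type library, and replicate 2 was the highest of each group. The mean was 80.9 ± 5.63 CPM in the knockout against 68.1 ± 3.14 CPM in wild type (SD, n = 3), and the log2 fold change was 0.24 (SE 0.07, edgeR adjusted p = 0.00687). The call was lost without knockout replicate 2 (log2 fold change 0.19, adjusted p = 0.0536) and with DESeq2 (0.24, adjusted p = 0.118). Over all 15 alternatives the adjusted p lay between 0.00374 and 0.118.

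**Figure D1:**
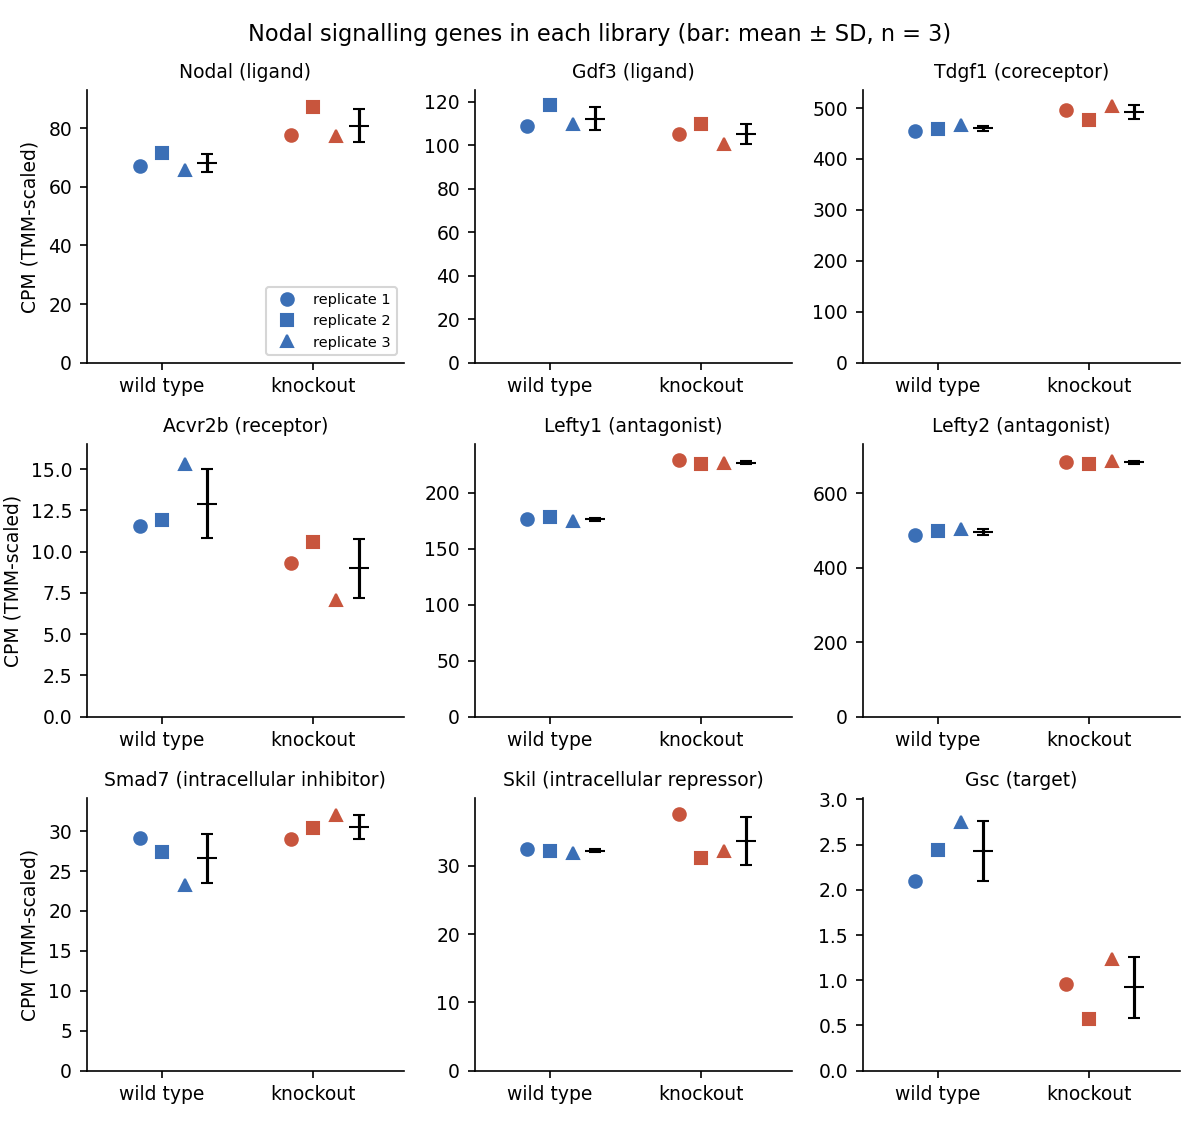
CPM (linear axis from 0, TMM-scaled) of the 9 genes in each of the 3 wild-type and 3 knockout libraries, with symbols for the replicate numbers and a bar for the mean ± SD. The 3 knockout points of Lefty1 (226 to 229 CPM) and Lefty2 (679 to 686 CPM) lie close together above the wild-type points, while those of Gsc (0.567 to 1.23 CPM) lie below.

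The 4 members found in the RefSeq promoter table (GRCm38.p6) were Nodal, Tdgf1, Acvr2b and Gsc; Lefty1, Lefty2, Gdf3, Smad7 and Skil were not among them. The sequences before the start of the called members among them, 1 that rose and 2 that fell, are shown here to set them side by side, 5′ to 3′ on the strand of the gene. They run up to the base before the gene start, which for Acvr2b and Gsc is the start in GENCODE, so that 60 and 94 bases before the RefSeq start are left out. Capitals mark matches to the SMAD box CAGAC, the GC-rich SMAD motif GGCGC, the FOXH1 core AATCCAC or the TATA box letters TATAAA, each searched on both strands.
Nodal, chr10:61417722-61417971: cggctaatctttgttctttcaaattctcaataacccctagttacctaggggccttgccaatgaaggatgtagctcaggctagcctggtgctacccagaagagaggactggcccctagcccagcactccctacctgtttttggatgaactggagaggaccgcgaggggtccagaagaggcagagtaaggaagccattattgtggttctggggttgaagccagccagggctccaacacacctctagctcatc
Acvr2b, chr9:119401928-119402117: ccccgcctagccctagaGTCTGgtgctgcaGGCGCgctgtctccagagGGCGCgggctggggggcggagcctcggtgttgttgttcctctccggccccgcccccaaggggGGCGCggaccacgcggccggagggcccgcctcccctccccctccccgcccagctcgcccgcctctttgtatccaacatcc
Gsc, chr12:104473331-104473486 (minus strand): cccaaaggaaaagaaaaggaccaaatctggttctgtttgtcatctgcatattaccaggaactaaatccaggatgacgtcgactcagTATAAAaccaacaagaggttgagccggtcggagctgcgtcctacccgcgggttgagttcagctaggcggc

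The 250 bases before Nodal held none of these letter strings. Of 32851 promoter windows of that length, CAGAC was in 42.2%, GGCGC in 32.0%, AATCCAC in 2.10% and TATAAA in 12.4%. The window before Acvr2b, at 74.7% G and C, held GGCGC 3 times and CAGAC once, as its reverse complement GTCTG; over all windows of that length, 190 bases, these were in 24.3% and 34.6%. The matches do not overlap each other. The window before Gsc held TATAAA once, beginning 70 bases before the end of the window, where 7.52% of windows of 156 bases held it. The compared windows of 190 and 156 bases end 60 and 94 bases before their RefSeq starts, wherever their GENCODE starts lie. They thus lack the bases nearest to the RefSeq start, and these shares may not hold for windows that end at a gene start. These are matches of letters and describe the windows only.

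Lefty1 (ENSMUSG00000038793, chromosome 1, 180935022 to 180938400) and Lefty2 (ENSMUSG00000066652, chromosome 1, 180893108 to 180899103) encode paralogous secreted antagonists of Nodal and lie 35.9 kb apart on the plus strand. Lefty2 had 685, 679 and 686 CPM in the knockout libraries and 488, 499 and 503 CPM in the wild-type libraries. The groups were far apart relative to their spread, with means of 683 ± 3.60 and 497 ± 7.75 CPM (SD, n = 3; log2 fold change 0.46, SE 0.04, edgeR adjusted p = 6.63e-10). Lefty1 had 229, 226 and 226 CPM in the knockout against 176, 178 and 175 CPM in wild type. It showed the same order, with means of 227 ± 1.64 and 176 ± 1.53 CPM (log2 fold change 0.36, SE 0.04, edgeR adjusted p = 7.61e-08). Neither call rested on a single library: with each library left out in turn the log2 fold change ran from 0.36 to 0.37 for Lefty1 and from 0.44 to 0.47 for Lefty2.

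The Lefty transcripts are alike in sequence, and 17.9% of the 50-base windows of the annotated Lefty1 transcripts occur in those of Lefty2, as do 12.0% of the Lefty2 windows in Lefty1. Reads that lie wholly within these stretches cannot be assigned to one of the genes by their sequence. The share of such reads was not measured, which leaves the split between the genes uncertain. Their summed level does not depend on that split. It was 913, 905 and 912 CPM in the knockout libraries and 665, 677 and 678 CPM in the wild-type libraries, a log2 ratio of the means of 0.44. Of 9 tested genes within 200 kb of the pair 1 rose and 0 fell, with log2 fold changes between -0.20 and 0.61. Over all tested genes 12.1% rose and 14.4% fell. Within 5 Mb the median log2 fold change was 0.11 around Lefty1 and 0.10 around Lefty2, against 0.01 on the other autosomes. A shift of the region was not tested. The gene that rose was H3f3a, a histone variant gene (0.14, edgeR adjusted p = 0.0165), named after its value was seen.

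The ratio of Lefty1 to Lefty2 in TPM was 0.543, 0.544 and 0.532 in the knockout and 0.570, 0.568 and 0.559 in wild type. The ratio was slightly lower in every knockout library, by 0.07 on the log2 scale (exact two-sided permutation test, p = 0.1, the smallest that 3 against 3 libraries allow). The ratio of the Lefty sum to Nodal was 11.4, 10.1 and 11.5 in the knockout and 9.64, 9.15 and 10.1 in wild type. In TPM the groups overlapped, with a difference of 0.19 on the log2 scale (exact two-sided permutation test, p = 0.2). Taken from CPM the difference was also 0.19, and the groups did not overlap (exact two-sided permutation test, p = 0.1, the smallest possible). With 3 ratios compared, Benjamini-Hochberg adjustment left no p below 0.05, since none could reach it unadjusted.

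**Figure D2:**
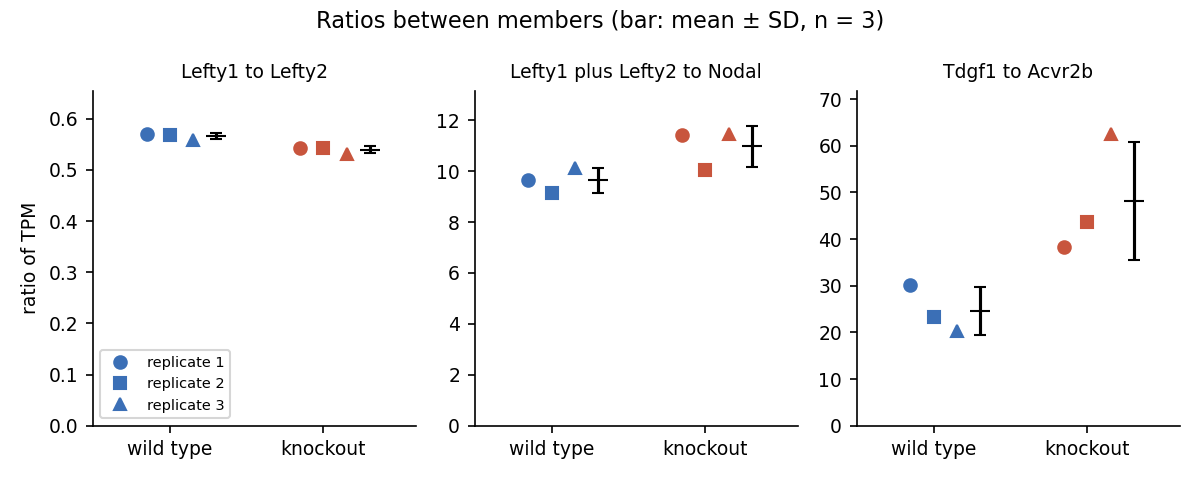
Ratios of TPM between members (linear axes from 0) in each library, with the mean ± SD of 3 libraries. The Lefty1 to Lefty2 ratio lies between 0.532 and 0.570 in all libraries, the ratio of the Lefty sum to Nodal overlaps between the groups, and the ratio of Tdgf1 to Acvr2b lies between 38.2 and 62.5 in the knockout and between 20.3 and 30.2 in wild type.

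Gdf3 (chromosome 6, 122605403 to 122610087) encodes a ligand of the same family that can act through the coreceptor Cripto. It had 105, 110 and 100 CPM in the knockout against 109, 118 and 109 CPM in wild type. The groups overlapped, and the log2 fold change of -0.10 (SE 0.06, edgeR adjusted p = 0.223) was not called, with a 95% interval of -0.21 to 0.01. On log2(TPM + 1) it was 0.04, on a scale where the median of all genes was 0.10. Gdf3 lies on chromosome 6, whose other tested genes had a median of 0.16, against 0.01 on the other autosomes. For the other 8 members the chromosome medians lay between 0.01 and 0.04, and the medians of the genes within 5 Mb between -0.05 and 0.11.

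Tdgf1 (chromosome 9, 110939603 to 110946158, minus strand), the gene of the coreceptor, had 497, 476 and 504 CPM in the knockout against 456, 458 and 466 CPM in wild type. All knockout libraries were above all wild-type libraries, by a small margin: the log2 fold change of 0.10 (SE 0.04) did not pass the test (edgeR adjusted p = 0.101). Knockout replicate 2 was the lowest of its group, and without it the difference of 0.12 passed (adjusted p = 0.0311). It also passed on log2(TPM + 1), at 0.22 (limma adjusted p = 0.0476), on a scale where the median of all genes was 0.10. The processed pseudogene Tdgf1-ps1 shares 50.9% of its 50-base windows with Tdgf1 but held only 0.435% to 1.09% of their summed counts, and Tdgf1-ps2 had 0 counts, so the sum of the 3 loci gave the same log2 ratio, 0.10.

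Acvr2b (ENSMUSG00000061393, chromosome 9, 119402118 to 119434995) encodes an activin type II receptor. Its libraries held 58, 56 and 46 counts in the knockout and 66, 73 and 89 in wild type, or 9.28, 10.6 and 7.08 CPM against 11.5, 11.9 and 15.3 CPM. The groups did not overlap, and wild-type replicate 3 and knockout replicate 3 were the farthest apart. The log2 fold change was -0.53 (SE 0.17, edgeR adjusted p = 0.0211). The call was lost with DESeq2 (-0.53, adjusted p = 0.221), without knockout replicate 3 (-0.38, adjusted p = 0.158) and when wild-type replicate 3 was left out (-0.40, adjusted p = 0.157). Its 15 alternatives gave an adjusted p between 0.0123 and 0.221.

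The deposited length of Acvr2b, an average over its 6 annotated transcripts, differed between libraries. It was 1417, 1872 and 1699 bases in the knockout and 1506, 1218 and 1332 bases in wild type, so the groups overlapped but the knockout mean was 23.0% longer. With an offset for this length the fall was larger, -0.84 on the log2 scale (adjusted p = 0.0123), and in TPM the levels were 5.59 ± 1.23 in the knockout and 9.25 ± 1.73 in wild type (SD, n = 3). At 46 to 89 counts per library such isoform shares rest on few reads. The ratio of Tdgf1 to Acvr2b in TPM was 38.2, 43.8 and 62.5 in the knockout and 30.2, 23.3 and 20.3 in wild type. It was higher in every knockout library, by 0.96 on the log2 scale (exact two-sided permutation test, p = 0.1, the smallest possible), and by 0.63 when taken from CPM.

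Smad7 and Skil encode inhibitors that the pathway and related TGF-beta signals induce. Smad7 (chromosome 18, 75367529 to 75395935), whose product blocks the receptors, had 29.0, 30.4 and 32.0 CPM in the knockout against 29.2, 27.4 and 23.2 CPM in wild type. The groups overlapped by 1 library of each, and the log2 fold change of 0.20 (SE 0.11, edgeR adjusted p = 0.174) was not called. Its deposited length was 3596, 4172 and 3565 bases in the knockout and 4246, 4163 and 4259 bases in wild type, with knockout replicate 2 among the wild-type values. Allowing for this length the difference was 0.39 and passed (adjusted p = 0.0426), and on log2(TPM + 1) it was 0.43 and did not (limma adjusted p = 0.0797). On the log2(TPM + 1) scale the median of all genes was 0.10. Its adjusted p ran from 0.0426 to 0.555 over its alternatives.

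Skil (chromosome 3, 31095058 to 31122577), whose product SnoN is a corepressor of Smad complexes, had 37.6, 31.2 and 32.2 CPM in the knockout against 32.5, 32.2 and 32.0 CPM in wild type. The knockout libraries lay on both sides of the wild-type values, and the log2 fold change was 0.07 (SE 0.10, edgeR adjusted p = 0.675), with a 95% interval of -0.13 to 0.26. Without knockout replicate 1, the highest library, it was -0.02.

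Gsc (ENSMUSG00000021095, chromosome 12, 104471209 to 104473330, minus strand) encodes goosecoid, a homeobox factor that marks the organizer and the anterior primitive streak in the embryo. It was close to the depth limit, with 6, 3 and 8 counts in the knockout against 12, 15 and 16 in wild type. The groups did not overlap, at 0.920 ± 0.334 CPM in the knockout against 2.43 ± 0.327 CPM in wild type (SD, n = 3). All knockout libraries were below the level the filter asks for and all wild-type libraries above it, so Gsc entered the test only through the group where it is high, and with no count filter it was not called (-1.36, adjusted p = 0.0516). The log2 fold change in the filtered table was -1.35 (SE 0.45, edgeR adjusted p = 0.0234), with a 95% interval of -2.23 to -0.47. DESeq2 did not call it (-1.39, adjusted p = 0.193), and it was not called without knockout replicate 1 (adjusted p = 0.0698), knockout replicate 2 (log2 fold change -1.13, adjusted p = 0.0926), wild-type replicate 2 (0.0742) or wild-type replicate 3 (0.104). The adjusted p lay between 0.0204 and 0.193 in its 15 alternatives.

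**Figure D3:**
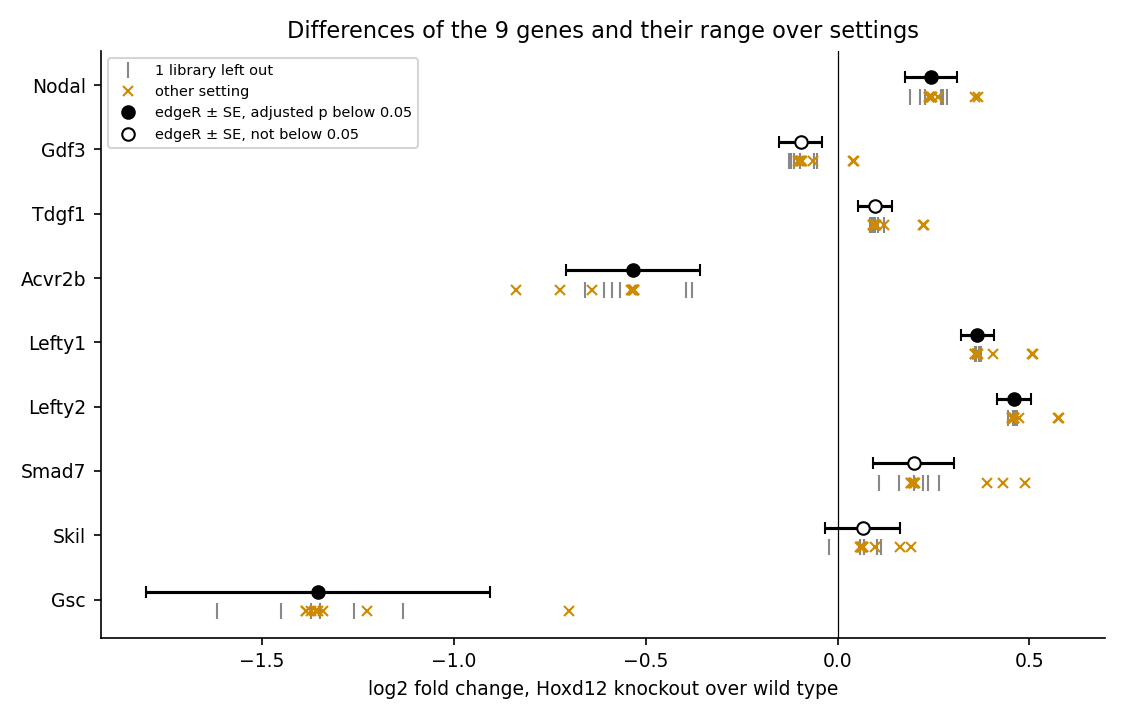
Log2 fold change of the 9 genes, knockout over wild type, with the edgeR value ± SE above and the values under the other settings below (ticks: 1 library left out; crosses: other tools, filters, scalings and units). Lefty1 and Lefty2 keep within 0.36 to 0.58, Acvr2b ranges from -0.84 to -0.38 and Gsc from -1.62 to -0.70, and Gdf3 and Skil have settings on both sides of 0.

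Compared per length, the levels of the 9 genes differed widely. In TPM the means over all 6 libraries were 241 for Tdgf1, 230 for Lefty2, 127 for Lefty1, 49.4 for Gdf3, 34.4 for Nodal, 7.42 for Acvr2b, 6.79 for Smad7, 4.58 for Skil and 1.31 for Gsc. Tdgf1 and Lefty2 were not separated, as Tdgf1 was above Lefty2 in every wild-type library and Lefty2 above Tdgf1 in every knockout library, with means of 276 ± 18.2 TPM against 260 ± 22.3 TPM. Acvr2b and Smad7 overlapped in the same way, with Acvr2b the higher in every wild-type library and the lower in every knockout library, where the means were 5.59 ± 1.23 TPM against 7.95 ± 1.29 TPM. The deposited lengths behind these TPM also differed, by 23.0% for Acvr2b and -10.5% for Smad7 (knockout mean against wild-type mean). Their part in this change of order was not tested. In counts, which are not scaled to length, Smad7 (135 to 208) lay above Acvr2b (46 to 89) in every library. The ranges of Smad7 and Skil overlapped too, while Smad7 was the higher in every library. The RNA of each Lefty antagonist was thus far more abundant than that of the ligand Nodal. In wild type, Lefty1 stood at 104 ± 1.18 TPM and Lefty2 at 185 ± 1.29 TPM, and Nodal at 30.0 ± 1.46 TPM.

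**Figure D4:**
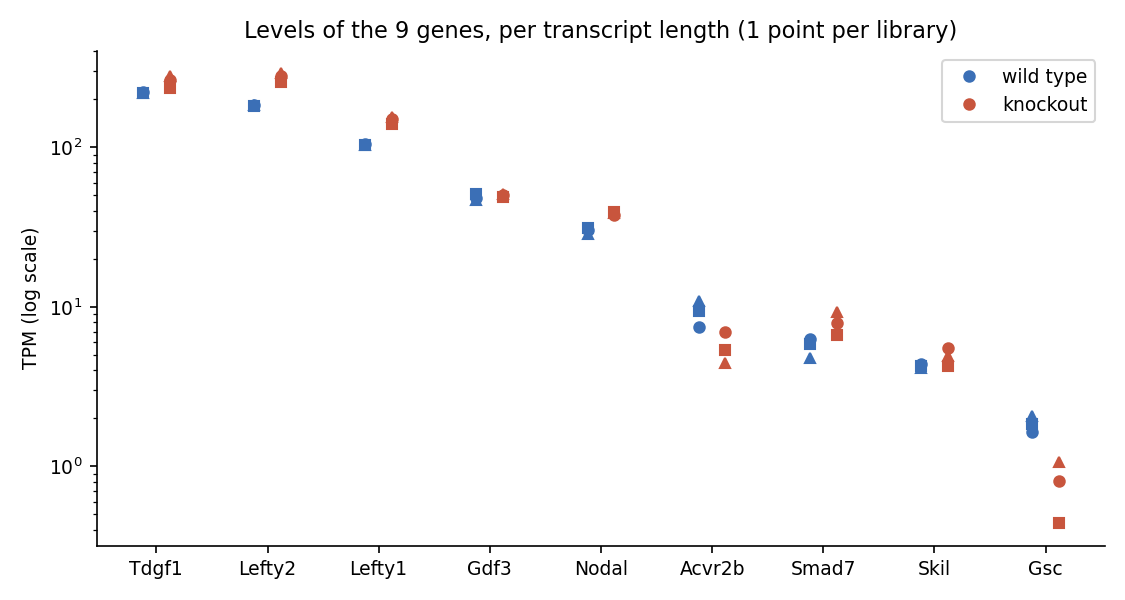
TPM (log scale) of the 9 genes in each library, wild type and knockout side by side, ordered by the mean over 6 libraries. The levels fall from 241 TPM for Tdgf1 to 1.31 TPM for Gsc, and the order of Tdgf1 and Lefty2 and of Acvr2b and Smad7 differs between the groups.

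Likeness to Nodal was measured over the 6 libraries as the root mean square difference of log2 CPM centred on the wild-type mean. It was taken for 8678 other genes of at least 10 CPM, and the ranks of members below count all of them. For naming, genes with clone or predicted names (such as Gm or Rik symbols) were passed over, so nearer genes may be left unnamed. Of the rest, the closest pattern was that of Ppcdc, which encodes an enzyme of coenzyme A synthesis, at 0.016. Smyd3, a SET-domain methyltransferase gene, followed at 0.027 and Myo5a, a myosin gene, at 0.034. Like Nodal, these were highest in knockout replicate 2, at 34.6, 47.8 and 14.0 CPM, which follows from how the measure picks them. By edgeR Smyd3 was called (adjusted p = 0.0362), while Ppcdc (0.0600) and Myo5a (0.282) were not. Among the members, Lefty1 was the nearest to Nodal, at 0.11 and rank 698, and Lefty2 followed at rank 2485 behind Smad7 and Tdgf1. Lefty1 was rank 76 in likeness to Lefty2, at 0.07.

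The other genes of the pathway were taken from 6 lists by role, with 51 genes in all, of which 36 passed the filter. Of these 6 rose and 2 fell, or 22.2%, which is close to the share of all tested genes, 26.5%. Their median log2 fold change was 0.08. Those described here that rose were Foxh1, Pcsk6, Bambi, Trim33 and Tgif1, and those that fell were Drap1 and Tmem8.

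Of 8 tested genes of Smads and their partners, 2 rose and 1 fell. Foxh1, the forkhead factor through which Smad2 and Smad3 act on Nodal and Lefty genes, had 33.0, 30.6 and 37.6 CPM in the knockout against 26.4, 22.3 and 22.0 CPM in wild type. Each knockout library was above each wild-type library, and the log2 fold change of 0.52 (SE 0.11, edgeR adjusted p = 0.000390) stayed between 0.44 and 0.65 over 15 other settings, with a call in each. Trim33, whose product binds activated Smads, rose by 0.32 (adjusted p = 0.0146). Drap1, a corepressor that in the mouse restrains Foxh1, fell by 0.19 (adjusted p = 0.00237). Both calls were lost on log2(TPM + 1) (adjusted p = 0.0983 for Trim33 and 0.223 for Drap1), and that of Trim33 also with DESeq2 (0.185), with the transcript length offset (0.157) and without wild-type replicate 3 (log2 fold change 0.27, adjusted p = 0.0875). The transducers themselves were not called: Smad2 was at 0.15 (adjusted p = 0.424), Smad3 at -0.06 (0.846) and Smad4 at 0.20 (0.161).

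Of 11 targets of streak and endoderm, 3 were tested, and of these 1, not reported here by name, rose and 0 fell. Eomes, a T-box gene of the streak, was at -0.04 (adjusted p = 0.873). The other 8 were below the filter, among them Lhx1 and Cer1 at 0 counts in all libraries. Brachyury, the gene T, had 2, 1 and 5 counts in the knockout and 6, 5 and 7 in wild type, and Mixl1, another streak gene, had 0, 2 and 0 against 4, 3 and 2. Neither passed when all genes with reads were tested (edgeR without a count filter, adjusted p = 0.417 and 0.395). These examples were chosen after seeing their values. In that fit Fgf8 (-0.79) and Sox17 (-1.09) were also below 0. Wnt3 (0.11) and Foxa2 (2.64, with at most 1 count in a library) were above it, and none of them was called.

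Of 5 tested genes of ligands and their maturation 1 rose: Pcsk6, a convertase that cleaves Nodal, by 0.31 (SE 0.08, edgeR adjusted p = 0.00622), with 45.9, 44.4 and 51.7 CPM in the knockout against 38.1, 39.6 and 37.5 CPM in wild type. The call was lost with DESeq2 (adjusted p = 0.131), on log2(TPM + 1) (0.0580) and without knockout replicate 3 (0.0696). The activin subunit gene Inhba had 0 counts in all libraries. Of 4 tested receptors and coreceptors 0 were called by edgeR, 0 had an unadjusted p below 0.05, and Acvr1b, the type I receptor, was at 0.27 (adjusted p = 0.176). Acvr1c, another type I receptor of Nodal, had 0 counts in all libraries, and Cfc1, the paralogue of Tdgf1, had 3 counts in 1 library. Of 5 tested genes of the list of antagonists and other extracellular regulators 0 rose and 1 fell. That gene, Tmem8, is not an antagonist: its product sheds Cripto and supports Nodal signalling in the mouse embryo. It fell by 0.32 (adjusted p = 0.00687), which DESeq2 (0.128) and limma on log2(TPM + 1) (0.215) did not call. Dand5, a Nodal antagonist of the Cerberus family, was at 0.80 (SE 0.31, adjusted p = 0.0520), with 30, 29 and 26 counts against 10, 19 and 19; it was named after its values were seen.

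Of 11 intracellular inhibitors 2 rose. Bambi, a pseudoreceptor that blocks receptor signalling, had 13.0, 11.5 and 13.1 CPM in the knockout against 8.38, 6.68 and 11.0 CPM in wild type (log2 fold change 0.54, SE 0.17, edgeR adjusted p = 0.0212). Tgif1, a corepressor of Smad2, rose by 0.15 (adjusted p = 0.0362). Both calls depended on the fit: DESeq2 called neither (adjusted p = 0.228 and 0.278), Bambi was lost without 4 of the 6 libraries, each left out alone, with the highest adjusted p, 0.162, without wild-type replicate 2, and Tgif1 without 5 of them, knockout replicate 2 included (0.15, adjusted p = 0.0616), with the highest, 0.238, without wild-type replicate 1.

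**Figure D5:**
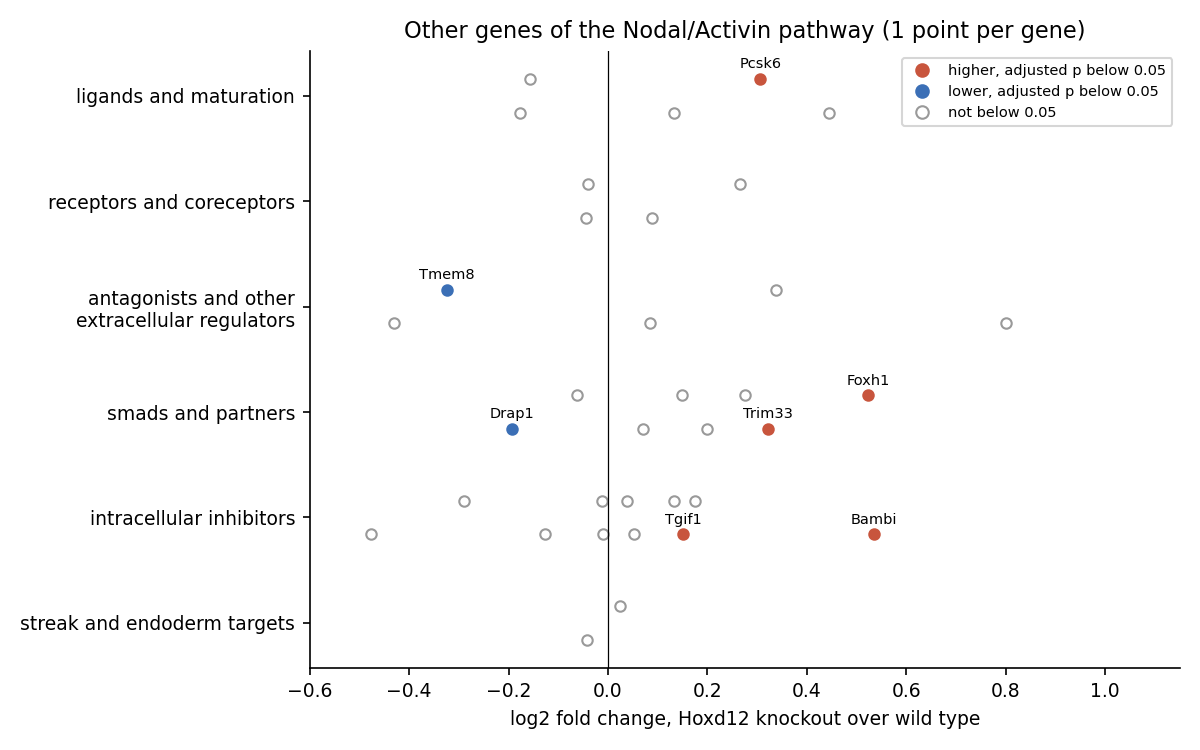
Log2 fold change, knockout over wild type, of tested genes of the 6 other lists, 1 point per gene and with 1 gene not shown, filled and named where the edgeR adjusted p was below 0.05. The named genes that rose lie between 0.15 and 0.54, and the 2 that fell at -0.19 and -0.32.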

How the data were processed

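RNA was sequenced from 3 Hoxd12 knockout and 3 wild-type libraries, made with a stranded mRNA kit per the labels' protocols. Each deposited file gives an expected count per gene, which need not be whole, and a length in bases. It also gives deposited TPM, and deposited FPKM, which was left out of all tests. Bowtie 0.12.2, mm8 and mm10 are named, without roles, in the submitters' processing notes. Not given in the sources used here were the quantifier, the annotation and the strand setting. Every identifier, 55450 in number, matched GENCODE M21 (GRCm38), the source of symbols and coordinates.

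Sample titles gave the groups and the replicate numbers. Counts were rounded and tested in R 4.3.3 with edgeR 4.0.16 (TMM, filterByExpr, robust quasi-likelihood test, group as the only term), leaving 12891 genes. P-values were adjusted by Benjamini-Hochberg over all of them, and 0.05 was the threshold; intervals are approximate and at 95%. The edgeR step was tested on simulated counts. Alternatives used DESeq2 1.42.0, limma 3.58.1 (TPM on a log2 scale with a pseudocount of 1 or 0.1), other filters and scalings, an effective length offset, a replicate block and each library left out; DESeq2 on the genes of the edgeR filter was chosen after seeing the data. Ratios were compared by exact permutation tests. Libraries of a group differed by more than sampling noise (median chi-square per gene 0.620 to 0.965, where noise alone gives 0.455).

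The members and lists were chosen with earlier results of these data known. The genes named were the members, Hoxd12 and up to 3 called genes in each direction per list. The 3 patterns nearest to Nodal, outside clone or predicted names, were named too. Others are said to be named after their values were seen, or are given as examples of genes that were not called. Some genes within the counts are not reported here by name.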

Additional observations from a re-analysis of the deposited data

How the results depend on the processing

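Lefty1 and Lefty2 kept their direction and call in all 15 alternatives (log2 fold changes 0.36 to 0.51 and 0.44 to 0.58). DESeq2 ended the calls of Nodal (0.24), Acvr2b (-0.53) and Gsc (-1.39), and so did DESeq2 on the genes of the edgeR filter (0.24, adjusted p = 0.0646; -0.54, 0.110; -1.39, 0.0978). Gsc was also lost without a count filter (-1.36, adjusted p = 0.0516). Tdgf1 gained a call on both TPM scales (0.22 on each) and Smad7 with the length offset (0.39). Gdf3 turned to 0.041 on log2(TPM + 1) and 0.042 on log2(TPM + 0.1), and Skil to -0.023 without knockout replicate 1. With 1 library left out, log2 fold changes ran from 0.19 to 0.28 for Nodal, 0.083 to 0.12 for Tdgf1, -0.66 to -0.38 for Acvr2b, -1.62 to -1.13 for Gsc, 0.11 to 0.27 for Smad7, -0.13 to -0.05 for Gdf3 and -0.023 to 0.11 for Skil. The causes were not tested.

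Over all genes edgeR called 3420 (1559 higher, 1861 lower). DESeq2 called 1587 (524 higher, 1063 lower), and 1988 (701 higher, 1287 lower) on the genes of the edgeR filter. Limma called 1856 on log2(TPM + 1) (1107 higher, 749 lower) and 1824 on log2(TPM + 0.1) (1086 higher, 738 lower), where the median of all genes was shifted by 0.10 and 0.11. Of the pathway lists edgeR called 8 (6 higher, 2 lower), DESeq2 with either filter 3 (2 higher, 1 lower), the length offset 5 (3 higher) and limma on either TPM scale 4 (4 higher, 0 lower). Leaving out 1 library gave 6 to 8 calls, 3 to 6 higher and 2 to 3 lower, with the 3 higher calls without knockout replicate 3.

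Deviations of same-numbered libraries from their group means correlated at 1.06e-05 to 0.0389, and those of other-numbered libraries at -0.0528 to 0.0400. These values show no sign of pairing, but with 3 libraries per group they cannot settle whether the numbers pair the libraries. The replicate block changed no call of a member, gave 3353 calls over all genes and 8 of the pathway lists, and log2 fold changes of 0.25 for Nodal, 0.36 for Lefty1, 0.46 for Lefty2, -0.53 for Acvr2b and -1.37 for Gsc. The direction of each ratio between members held in all 7 alternatives. Depth limits what can be said of Gsc, at 3 to 16 counts per library, and of the listed genes below the filter.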
